A study of Bubalus bubalis with 6 samples.

Results

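The genes compared here encode chaperones of the cytosol and of mitochondria, with the cochaperones and heat shock factors that work with them. They were taken from the deposited gene table by symbol, from a list of 45 symbols. The table lists 38 of these symbols in 39 rows, out of 24616 rows in all, and 37 rows had enough counts to be tested. CCT8, DNAJB6, HSP90AA1, HSP90AB1, HSPA1A, HSPA2 and PFDN2 are not listed by symbol and were not analysed here, so the cytosolic HSP90 proteins themselves are missing from what follows. DNAJB1 is listed at 0 counts in all 6 samples, in a row of 714 bases whose length equals its interval, and no level can be read from it. A second row of PFDN4 held 1 count, in DM replicate 2.

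Chaperones bind proteins that have not yet folded, or have come unfolded, and keep them from aggregating. HSP70 proteins hold short stretches of a client in a cycle of ATP hydrolysis that J-domain proteins start and HSP110 proteins reset by exchanging the nucleotide. HSP90 and its cochaperones finish the folding of kinases and steroid receptors, the CCT ring folds actin and tubulin, prefoldin hands it clients, and HSPD1 with HSPE1 forms the folding chamber of the mitochondrial matrix. In muscle, where actin and myosin are made in bulk, CCT and the UNC45 myosin chaperones are known for their part in building the contractile apparatus.

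Polyadenylated RNA was sequenced from primary water buffalo muscle stem cells (MuSCs), which the study isolated from the longissimus muscle of fetuses. The 3 GM samples are proliferating MuSCs in growth medium with fetal bovine serum, and the 3 DM samples are MuSCs moved to a differentiation medium with horse serum once nearly confluent. The labels name no transgene or drug. They also name no animals or separate cultures, so p-values measure only the spread between these samples, which may be technical. Gene counts ranged from 36657735 to 40305237 per GM library and from 35615864 to 38177614 per DM library. No 2 libraries agreed within sampling noise. Chi-square over its degrees of freedom ran from 6.22 to 11.7 for most replicate pairs and reached 40.5 and 41.4 for the pairs that hold DM replicate 3. Of the myoblast markers, 9 of 11 are listed and all 9 had counts, among them PAX7, MYF5 and MYOD1. Of these 9, 2 were called higher in differentiation medium and 3 lower. The 9 together summed to 2786 to 3045 CPM (a gene's counts scaled to a library of fixed size) in growth medium and 2197 to 2773 CPM in differentiation medium. DES alone averaged 2274 CPM in growth medium and 2051 CPM in differentiation medium. All 11 myotube markers were called higher in differentiation medium and all 6 proliferation markers lower, their summed level falling from between 1762 and 1789 CPM to between 393 and 469 CPM. Fibroblast markers, of which 6 of 8 tested were called higher in differentiation medium, were abundant too. They summed to 24840 to 25060 CPM in growth medium and 77010 to 96970 CPM in differentiation medium. Collagens dominate these sums, with means of 15290 and 44330 CPM for COL1A1 and 8299 and 39250 CPM for COL3A1. PDGFRA (575 and 859 CPM) and OSR1 (9.79 and 14.1 CPM) were not called. Endothelial and immune markers summed to at most 3.05 and 6.29 CPM in any sample, and adipocyte markers to at most 8.65 CPM. The part of these shifts in the chaperone results was not tested, and fewer cells of a type and less RNA per cell cannot be told apart in such bulk samples.

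Chaperone mRNAs were lower in differentiation medium. The 37 tested genes together took 1.13 ± 0.00910% of gene counts in growth medium and 0.599 ± 0.0187% in differentiation medium (SD, n = 3 each). HSPA8 alone made up 25.5 to 25.6% of these counts in growth medium and 17.6 to 18.1% in differentiation medium. The remaining genes also took a smaller share, 0.833 to 0.845% of all gene counts in growth medium and 0.473 to 0.502% in differentiation medium. The shares of the groups did not overlap in any of these measures.

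The groups were compared by the quasi-likelihood test of edgeR, run over the counts of all 15576 genes with at least 10 counts in total, and p-values were adjusted over all of them. Fold changes are DM over GM on the log2 scale. A gene was called where the log2 fold change exceeded 1 in either direction with an adjusted p under 0.05. By this rule edgeR called 10 of the 37 chaperone genes (27.0%), where it called 25.3% of all tested genes and 18.0% of the 8981 genes that averaged 10 CPM or more. By direction, chaperone genes called lower numbered 8 (21.6%), against 10.3% of all tested genes and 9.07% of those averaging 10 CPM or more. Those called higher numbered 2 (5.41%), against 15.0% and 8.89%. Most changes were smaller than 2-fold. With no minimum fold change 32 chaperone genes passed (86.5%), against 63.0% of all tested genes and 73.6% of those that averaged 10 CPM or more. Of these, 28 fell and 4 rose, and 5 genes did not pass. Those that fell made up 75.7%, where 31.4% of all tested genes and 41.7% of the genes averaging 10 CPM or more fell. The 4 that rose made up 10.8%, against 31.6% of all tested genes and 31.8% of those averaging 10 CPM or more. GM and DM samples did not overlap in 32 of the 37 genes (86.5%), against 68.8% of all tested genes and 77.6% of those averaging 10 CPM or more. All DM samples were below all GM samples in 28 chaperone genes, as in 34.3% of all tested genes and 43.9% of those averaging 10 CPM or more. They were above in 4, as in 34.5% and 33.6%. The median log2 fold change was -0.67 over the chaperone genes, 0.025 over all tested genes and -0.079 over those averaging 10 CPM or more. The list was chosen with results of these data known, so no test of the list as a whole is given.

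**Figure D1:**
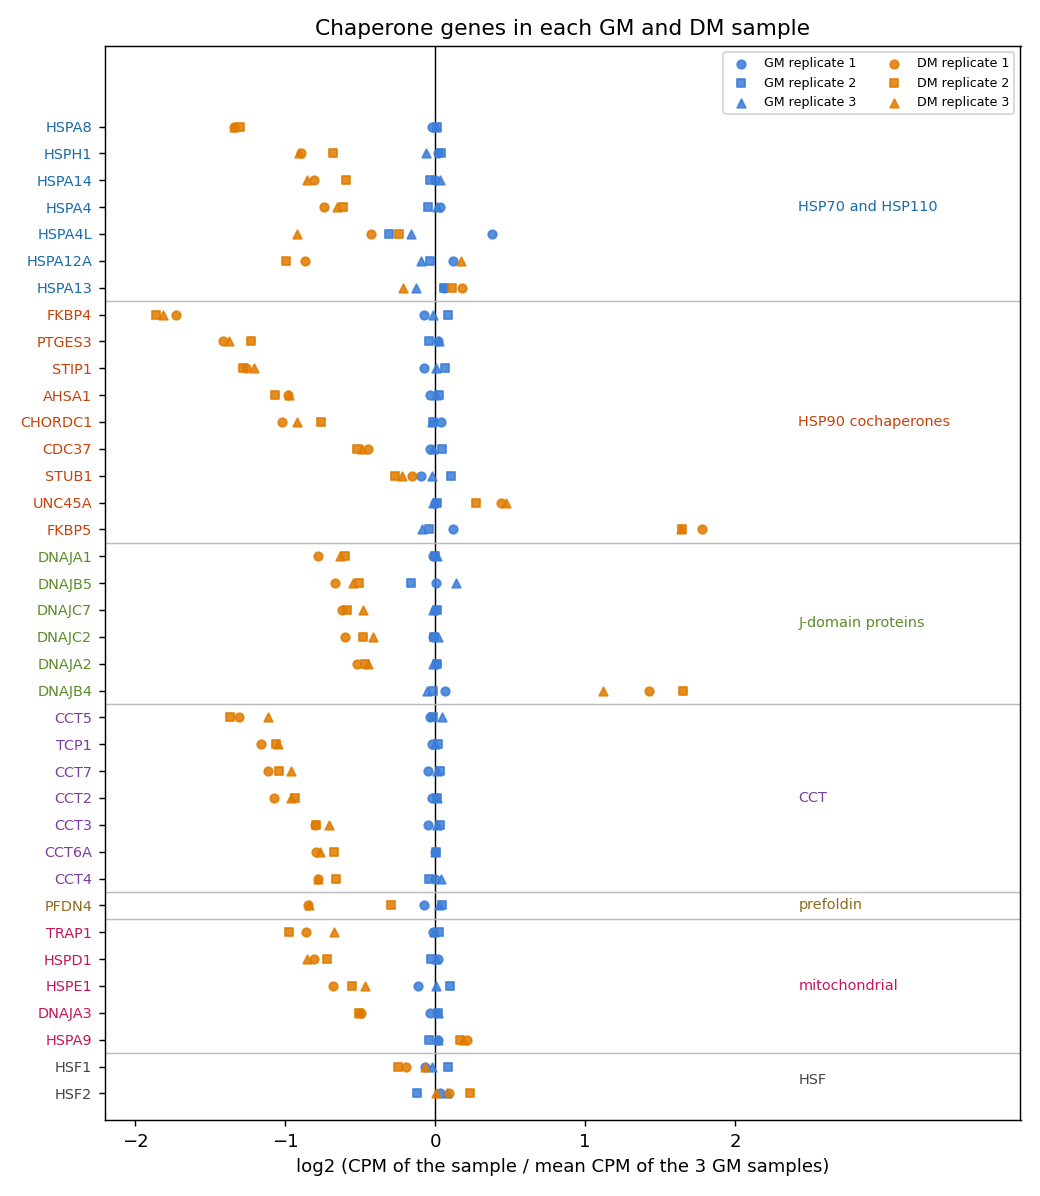
Level of each tested chaperone gene in each sample, as log2 of its CPM over the mean CPM of the 3 GM samples, with genes grouped and coloured by role, blue symbols for GM samples and orange for DM samples. In 28 genes all 3 DM samples lie below all 3 GM samples, and in FKBP5, DNAJB4, UNC45A and HSPA9 they lie above. Over all tested genes they lie below in 34.3% and above in 34.5%.

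**Figure D2:**
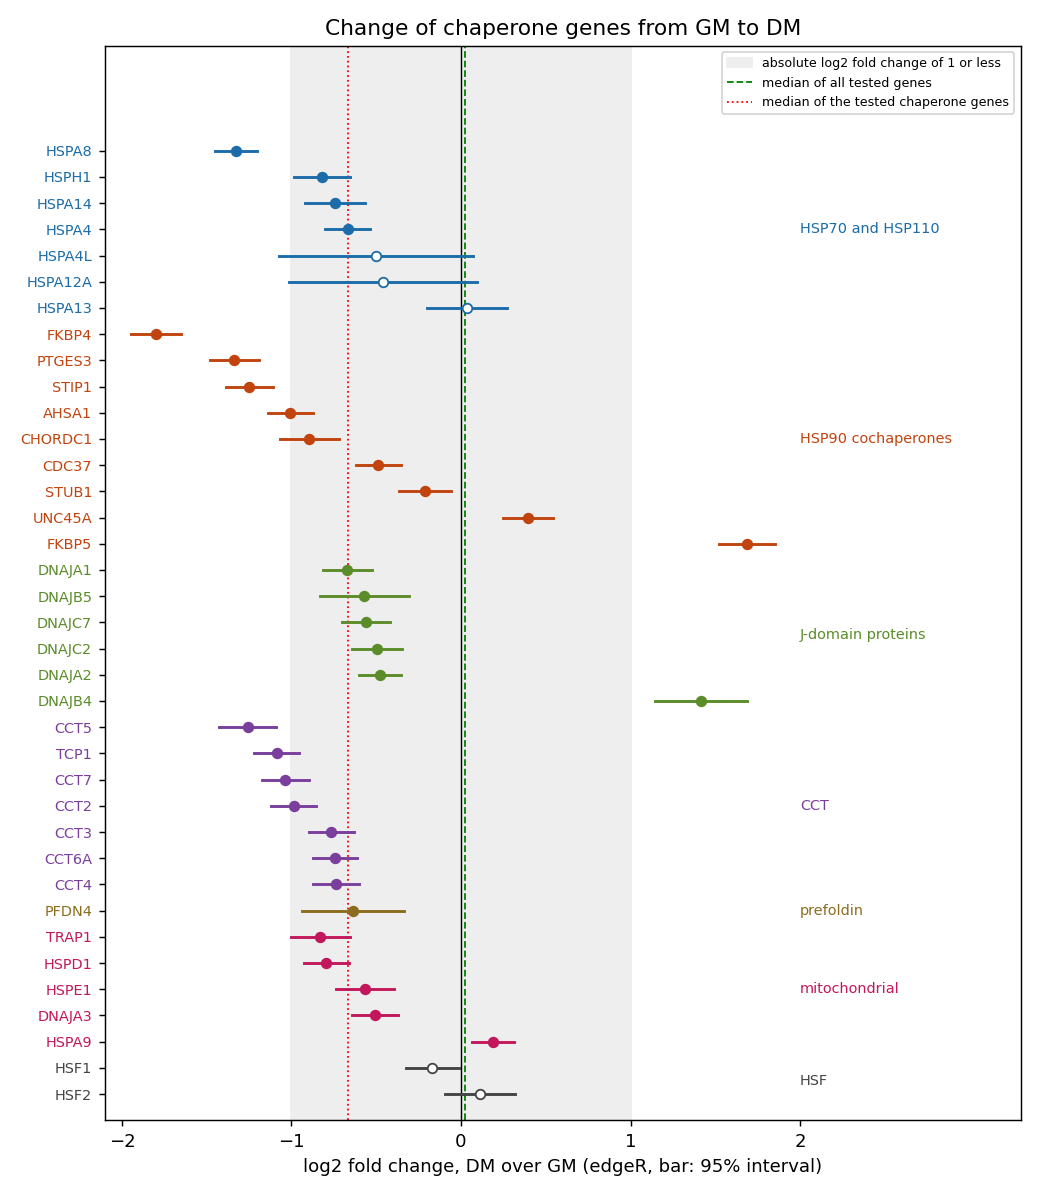
Log2 fold change of each tested chaperone gene, DM over GM, with its 95% interval, filled where the adjusted p from edgeR was under 0.05. The dotted line marks the median of the 37 chaperone genes (-0.67), the dashed line that of all tested genes (0.025), and the grey band changes of 2-fold or less.

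Among the HSP70 and HSP110 genes, the leading member fell most. Of the 7 tested, 4 had an adjusted p under 0.05 (57.1%), against 63.0% of all tested genes and 73.6% of those averaging 10 CPM or more. All 4 fell, where 31.4% and 41.7% of these sets fell. Only 1 of the 7 was called (14.3%, against 25.3% and 18.0%). HSPA8 (ENSBTAG00000013162, chromosome 15, 34216278 to 34220705) encodes the constitutive cytosolic HSP70, which also strips clathrin from vesicles. It stood at 2754, 2817 and 2793 CPM in GM replicates 1, 2 and 3 and at 1101, 1130 and 1101 CPM in DM replicates 1, 2 and 3. The samples of a group lay within a few percent of each other and far from those of the other group. On the log2 scale DM over GM came to -1.33 (SE 0.056, edgeR adjusted p = 1.86e-08), or 2.51-fold lower in differentiation medium. By RPKM, which scales counts by gene length and total counts, HSPA8 ranked between 56 and 65 among all listed genes in growth medium and between 161 and 168 in differentiation medium. HSPA8 has near relatives of similar sequence, such as HSPA1A and HSPA2, and reads could have been divided among them by the counting.

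Of the HSP110 exchange factors, HSPH1 and HSPA4 fell as well and HSPA4L did not pass the test. HSPH1 went from 174 ± 6.41 to 98.4 ± 8.89 CPM, which is -0.82 in log2 units (adjusted p = 3.74e-06 from edgeR). HSPA4 went from 489 ± 13.6 to 308 ± 13.4 CPM, or -0.67 in log2 units. HSPA14, an HSP70 that works on the ribosome, fell by 0.75 on the log2 scale, and its interval holds another listed gene on the same strand, ENSBTAG00000045609, with a log2 fold change of -0.73. HSPA4L, HSPA13 and HSPA12A did not pass the test. HSPA4L, of low expression, was counted 165, 103 and 104 times in GM replicates 1, 2 and 3 and 77, 95 and 60 times in DM replicates 1, 2 and 3. Its DM samples overlapped the GM samples in CPM, and the log2 fold change was -0.50 with a 95% interval of -1.07 to 0.070. HSPA13, an atypical HSP70 of microsomes, had 32.1 ± 2.36 CPM in growth medium and 32.8 ± 4.61 CPM in differentiation medium. Its log2 fold change was 0.033 with an interval of -0.20 to 0.27, and its sign turned in some alternatives. HSPA12A, a distant relative of HSP70, stood at 23.4, 21.1 and 20.2 CPM in growth medium and at 11.8, 10.8 and 24.3 CPM in DM replicates 1, 2 and 3. DM replicate 3 was the highest of all 6 samples while DM replicates 1 and 2 were the lowest. The log2 fold change of HSPA12A was -0.46 (adjusted p = 0.134 from edgeR), and -0.92 (adjusted p = 1.15e-08) without DM replicate 3.

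The cochaperones of HSP90 held both the largest fall and the largest rise of the chaperone genes. All 9 passed an adjusted p under 0.05, with 7 lower and 2 higher in differentiation medium, where 63.0% of all tested genes and 73.6% of those averaging 10 CPM or more passed. Of the 9, 5 were called (55.6%, against 25.3% and 18.0%). FKBP4 (ENSBTAG00000007605, chromosome 5, 107445596 to 107453517), the immunophilin known as FKBP52 that carries steroid receptors with HSP90, had the largest change of all chaperone genes. Its samples held 425, 474 and 443 CPM in GM and 135, 123 and 127.5 CPM in DM. The highest DM sample lay far below the lowest GM sample. The change, DM over GM, was -1.80 in log2 units (SE 0.068, edgeR adjusted p = 9.71e-09), or 3.48-fold lower.

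FKBP5 moved the other way. FKBP5 (ENSBTAG00000047502, chromosome 23, 9521254 to 9637802) encodes FKBP51, the relative of FKBP52 that holds steroid receptors in a state of low hormone affinity and whose gene glucocorticoids induce. It was at 65.5, 58.6 and 56.8 CPM in growth medium against 206.5, 189 and 188 CPM in differentiation medium. This is 1.69 in log2 units (SE 0.075, edgeR adjusted p = 2.47e-08), or 3.22-fold higher, the largest rise among the chaperone genes. In level per length, FKBP4 stood at 221 ± 11.9 RPKM and FKBP5 at 16.8 ± 1.32 RPKM in growth medium. In DM samples they came to 59.3 ± 1.77 and 50.6 ± 1.97 RPKM.

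The adaptor and the p23 cochaperone fell by similar amounts. PTGES3 (ENSBTAG00000017967, chromosome 5, 57091367 to 57112468), which encodes p23 and steadies HSP90 in its closed form, was at 338.5, 325 and 340 CPM in growth medium against 126, 143 and 129 CPM in differentiation medium. edgeR put the log2 change at -1.34 (SE 0.066, adjusted p = 5.12e-08). STIP1 (ENSBTAG00000015663, chromosome 29, 43111546 to 43124096), the adaptor HOP that passes clients from HSP70 to HSP90, was at 294, 324 and 310 CPM in growth medium against 129, 127.5 and 134 CPM in differentiation medium. On the log2 scale DM over GM came to -1.25 (SE 0.062, edgeR adjusted p = 5.07e-08). In neither gene did the groups come near each other. AHSA1, which speeds the ATPase of HSP90, was at 144, 150 and 148 CPM in growth medium against 74.5, 70.3 and 74.8 CPM in differentiation medium. With a log2 fold change of -1.01 it lay at the threshold, and it was no longer called without GM replicate 2 (-0.99) or without DM replicate 2 (-0.96), though its adjusted p stayed under 0.05. Below the threshold, CHORDC1, a zinc-binding cochaperone, fell by 0.90 on the log2 scale, and CDC37, the adaptor for kinases, fell by 0.49. STUB1, the ubiquitin ligase CHIP that marks chaperone clients for breakdown, went from 123 ± 8.81 to 106 ± 4.28 CPM. Its log2 fold change was -0.21 (adjusted p = 0.0203 from edgeR), and adjusted p rose to 0.0910 without GM replicate 2, to 0.0537 without GM replicate 3 and to 0.0755 without DM replicate 2. UNC45A, the general myosin chaperone, rose from 135 ± 1.37 to 177.5 ± 12.6 CPM, 0.40 in log2 units (SE 0.066, edgeR adjusted p = 0.000368).

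**Figure D3:**
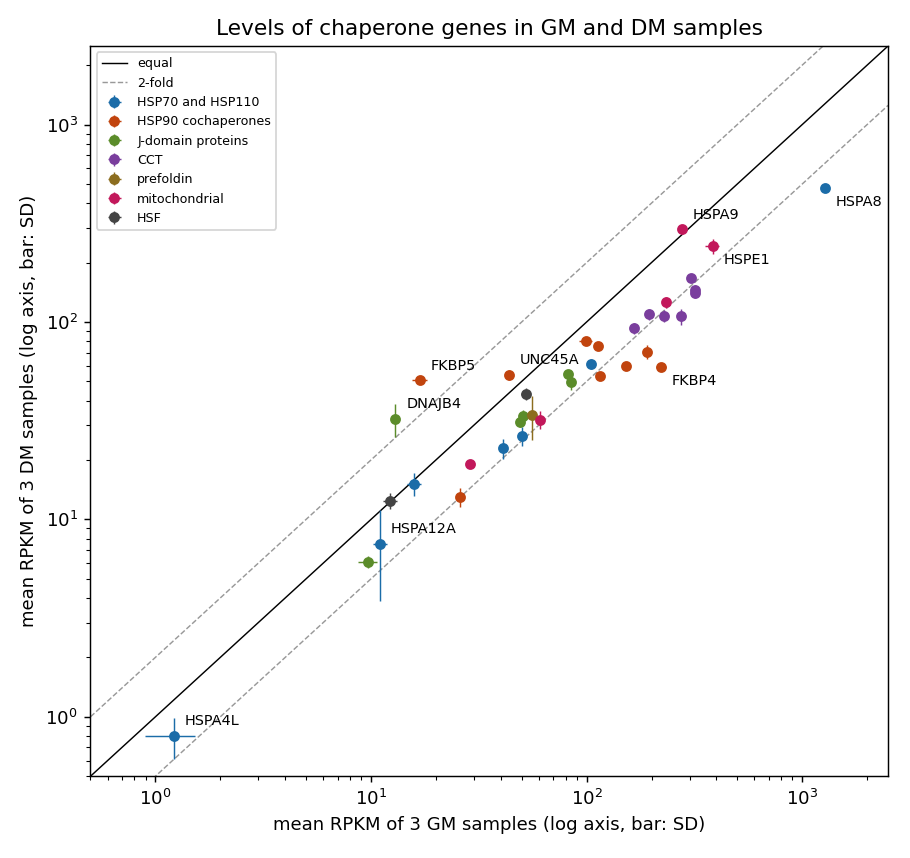
Mean RPKM of each tested chaperone gene in DM samples against GM samples, on log axes with SD bars over 3 samples, the equal line and lines at 2-fold. HSPA8 is highest in both groups, FKBP4 lies furthest below the lower 2-fold line, and FKBP5 and DNAJB4 lie above the upper line. HSPA8, PTGES3, STIP1, AHSA1, CCT5, TCP1, CCT7 and CCT2 also lie below the lower line by mean RPKM, though edgeR put CCT2 just under 2-fold.

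J-domain proteins recruit HSP70 to clients and start its ATP hydrolysis. Of the 6 tested, 5 fell and 1 rose at an adjusted p under 0.05, where 31.4% of all tested genes fell and 31.6% rose. Among genes averaging 10 CPM or more, 41.7% fell and 31.8% rose. DNAJA2, with the highest mean RPKM of these genes, was at 136.5, 137 and 135 CPM in growth medium against 95.1, 98.5 and 99.8 CPM in differentiation medium. The GM samples nearly coincided, and the log2 fold change was -0.48 (standard error 0.057, adjusted p = 2.94e-05 from edgeR). The other genes that fell lay between -0.67 for DNAJA1, which pairs with HSPA8 in the cytosol, and -0.50 for DNAJC2, which acts at the ribosome. DNAJC7, a J-domain protein that binds both HSP70 and HSP90, had a log2 fold change of -0.56, and DNAJB5 had -0.57 at a lower level of 12.8 ± 1.32 CPM in growth medium. DNAJB4 (ENSBTAG00000021752, chromosome 3, 66923000 to 66931737), a J-domain protein known from inherited muscle disease, rose. It was at 16.8, 15.9 and 15.5 CPM in growth medium and at 43.3, 50.5 and 34.9 CPM in DM replicates 1, 2 and 3. Every DM sample exceeded every GM sample, but the DM samples spread widely. The change, DM over GM, was 1.42 in log2 units (SE 0.12, edgeR adjusted p = 2.69e-06), or 2.67-fold higher.

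The CCT ring, also called TRiC, is built of 8 different subunits and folds actin and tubulin. The table lists 7 of them, and all 7 fell, with log2 fold changes from -1.26 to -0.74 and a median of -0.99. All 7 had an adjusted p under 0.05, where 31.4% of all tested genes and 41.7% of those averaging 10 CPM or more fell. CCT5 (ENSBTAG00000017889, chromosome 20, 63097314 to 63111305) fell most, from 538, 547 and 570.5 CPM in growth medium to 223, 214 and 255 CPM in differentiation medium. This is -1.26 in log2 units (SE 0.075, edgeR adjusted p = 1.71e-07). TCP1, the alpha subunit, was at 560, 577 and 568 CPM in growth medium against 254.5, 272 and 275 CPM in differentiation medium, a log2 fold change of -1.09. The interval of TCP1 shares 75 bases with ACAT2 on the opposite strand, and reads from the overlap cannot be told apart where counting ignored strand. CCT7 was at 522, 551 and 544.5 CPM in growth medium against 249, 262 and 277 CPM in differentiation medium. It was called at -1.04, and no longer without DM replicate 1 (-0.99).

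The remaining subunits stayed under a 2-fold change by edgeR. CCT2 had a log2 fold change of -0.99, CCT6A of -0.74 and CCT4 of -0.74. CCT3, with the highest mean RPKM of the ring over all samples, was at 552, 582 and 576 CPM in growth medium against 328, 329 and 350 CPM in differentiation medium, a log2 fold change of -0.76. The threshold of 1 therefore divides subunits of similar change, and the 95% intervals of CCT7 (-1.18 to -0.90) and CCT2 (-1.12 to -0.85) overlap widely. The interval of CCT5 (-1.43 to -1.09) does not meet those of CCT3 (-0.89 to -0.63), CCT4 (-0.87 to -0.60) and CCT6A (-0.87 to -0.61). The difference between subunits was not tested in itself.

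In level per length, the subunits kept within a narrow range. The highest was 1.89 to 1.95 times the lowest in growth medium and 1.69 to 1.92 times in differentiation medium, and CCT6A was lowest in all 6 samples. In GM samples the order ran from CCT7 (319 ± 8.23 RPKM) and TCP1 (318 ± 4.01 RPKM), which did not differ beyond their spread, to CCT3 (304 ± 7.91 RPKM), CCT5 (273 ± 8.17 RPKM), CCT2 (227 ± 2.16 RPKM), CCT4 (195 ± 5.90 RPKM) and CCT6A (166 ± 0.450 RPKM). In DM samples CCT3 came first with 167 ± 7.22 RPKM, and CCT5 dropped to place 6 with 107 ± 10.1 RPKM, level with CCT2 (107 ± 7.19 RPKM) and CCT4 (109 ± 7.06 RPKM) within their spread. CCT3 and CCT6A had the highest and lowest mean RPKM over all 6 samples. Their log2 ratio was 0.87 ± 0.038 in growth medium and 0.85 ± 0.093 in differentiation medium. An exact two-sided permutation test gave p = 0.8 (0.8 after adjustment over 2 ratios), where 3 samples against 3 allow no p under 0.1. These 2 subunits had similar log2 fold changes (-0.76 and -0.74), and the ratio does not cover the proportions of the other subunits.

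**Figure D4:**
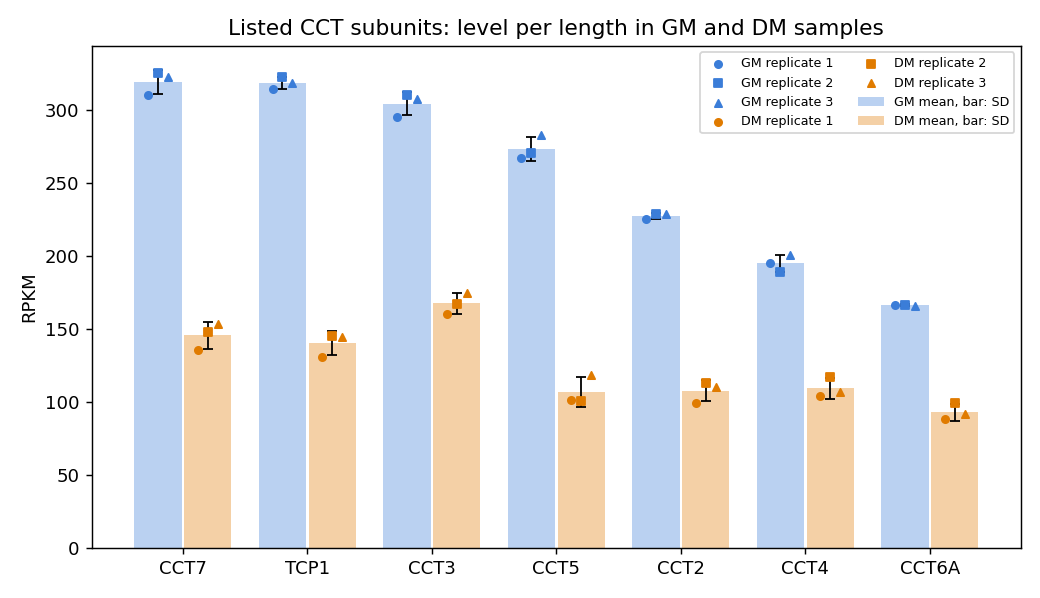
RPKM of the 7 listed CCT subunits, ordered by their GM mean, with bars for the mean of 3 GM samples (blue) and 3 DM samples (orange), SD as error bars and a point for each sample. All DM samples lie below all GM samples for each subunit. By CPM this holds in 34.3% of all tested genes and in 43.9% of those averaging 10 CPM or more. The order of subunits differs between the groups, with CCT7 first in GM and CCT3 first in DM.

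Prefoldin binds nascent actin and tubulin and delivers them to CCT. Its tested member, PFDN4 (ENSBTAG00000008812, chromosome 13, 82399773 to 82402817), was at 33.9, 36.9 and 36.3 CPM in growth medium and at 19.9, 29.1 and 19.9 CPM in DM replicates 1, 2 and 3. DM replicate 2 lay between the other DM samples and the GM samples. edgeR put the log2 change at -0.64 (SE 0.14, adjusted p = 0.00188).

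Mitochondrial chaperones fell, apart from HSPA9. Of the 5 tested, 4 fell and 1 rose at an adjusted p under 0.05, where 31.4% of all tested genes fell and 31.6% rose. Among genes averaging 10 CPM or more, 41.7% fell and 31.8% rose. None of the mitochondrial genes was called, where 25.3% of all tested genes and 18.0% of those averaging 10 CPM or more were. HSPD1 and HSPE1 encode the matrix chaperonin HSP60 and its lid HSP10, and they lie head to head on chromosome 2. HSPD1 (ENSBTAG00000012586) runs on the minus strand from 86438979 to 86449372 and HSPE1 (ENSBTAG00000012589) on the plus strand from 86449525 to 86451564, with 152 bases between them. HSPD1 was at 639, 616 and 633 CPM in growth medium against 359, 382.5 and 348 CPM in differentiation medium. On the log2 scale DM over GM came to -0.79 (SE 0.060, edgeR adjusted p = 1.02e-06). HSPE1 was at 163, 190 and 178 CPM in growth medium against 110, 121 and 128 CPM in differentiation medium. The change, DM over GM, was -0.57 in log2 units (SE 0.078, edgeR adjusted p = 8.83e-05). Both genes were lower in every DM sample than in any GM sample, as were 34.3% of all tested genes and 43.9% of those averaging 10 CPM or more. The log2 ratio of HSPD1 to HSPE1 in RPKM was -0.72 ± 0.14 in growth medium and -0.95 ± 0.14 in differentiation medium, and the groups overlapped (exact two-sided permutation p = 0.2, and 0.4 after adjustment over 2 ratios).

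TRAP1, the HSP90 of mitochondria, was at 133.5, 137 and 134 CPM in growth medium against 74.3, 68.8 and 84.7 CPM in differentiation medium. Its log2 change of -0.83 (SE 0.078, edgeR adjusted p = 5.25e-06) was the largest among the mitochondrial genes. The interval of TRAP1 shares 191 bases with DNASE1 on the opposite strand, which had 120 to 125 counts in growth medium and 12 to 37 in differentiation medium, few beside those of TRAP1. DNAJA3, the J-domain partner of mitochondrial HSP70, fell by 0.50 on the log2 scale. HSPA9, mitochondrial HSP70 or mortalin, which pulls imported proteins into the matrix, rose slightly. It was at 624, 598 and 624 CPM in growth medium against 713, 690 and 700.3 CPM in differentiation medium, 0.19 in log2 units (SE 0.056, edgeR adjusted p = 0.0129). The rise was smaller than most changes here, and its adjusted p was 0.170 when libraries were scaled by their totals and not by TMM and 0.0554 without GM replicate 2.

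Heat shock factors switch on chaperone genes under stress, and HSF1 and HSF2 did not pass the test. HSF1 (ENSBTAG00000020751, chromosome 14, 1806081 to 1825793) was at 97.1, 108 and 100.3 CPM in growth medium and at 88.8, 85.6 and 97.2 CPM in DM replicates 1, 2 and 3. DM replicate 3 reached the range of the GM samples. The log2 fold change was -0.17 (95% interval -0.33 to -0.010, adjusted p = 0.0603 from edgeR), and -0.21 (adjusted p = 0.0103) without DM replicate 3. HSF2 was at 20.3, 18.2 and 20.9 CPM in growth medium against 21.1, 23.3 and 19.9 CPM in differentiation medium. Its groups overlapped, with a log2 fold change of 0.11 and an interval of -0.092 to 0.32 (adjusted p = 0.308).

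Other genes of cytosolic and mitochondrial protein folding were compared as a list of 98 symbols, of which 89 are listed and 86 were tested. edgeR called 8 lower (9.30%, against 10.3% of all tested genes and 9.07% of those averaging 10 CPM or more) and 3 higher (3.49%, against 15.0% and 8.89%). With no minimum fold change 43 fell (50%, against 31.4% and 41.7%), 18 rose (20.9%, against 31.6% and 31.8%) and 25 did not pass the test, and the median log2 fold change was -0.19. Genes averaging 10 CPM or more that were called lower included DNAJC9 and RUVBL2. DNAJC9, a J-domain histone chaperone, fell by 1.57 on the log2 scale. RUVBL2, an ATPase that joins HSP90 in assembling large complexes, fell by 1.53. Of such genes, those called higher were HSF4, a heat shock factor known from the lens, and DNAJC4, with a log2 fold change of 1.08. HSF4 was at 5.35, 6.20 and 5.86 CPM in growth medium against 50.3, 46.9 and 63.6 CPM in differentiation medium, 3.21 in log2 units (SE 0.13, edgeR adjusted p = 1.27e-08). The remaining call higher was CCT6B, at under 0.4 CPM in every sample.

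Several chaperone genes carry small nucleolar RNAs within their intervals. In 5 of the tested genes the table lists 10 snoRNA rows, 9 of them on the strand of the host. The 3 SNORD14 rows within HSPA8 had log2 fold changes of -1.31 (adjusted p = 0.00695 from edgeR), -1.13 (0.0702) and -1.86 (0.00390), from at most 52 counts per sample. SNORA20 within TCP1 had 63 to 81 counts in growth medium and 64 to 107 in differentiation medium, with a log2 fold change of 0.36 (adjusted p = 0.246 from edgeR). Polyadenylated RNA was sequenced, and in these rows reads of unspliced host RNA cannot be told apart from reads of a snoRNA. In the transcript table, 32 of the tested chaperone genes have 1 transcript and 5 have 2 (CCT3, DNAJA1, DNAJB5, HSPD1 and STUB1). The transcript with the most counts gave a log2 fold change within 0.0205 of that of its gene in all 37. The 32 genes with 1 transcript have the same counts per gene and per transcript, so their match was fixed in advance and is no separate evidence. The transcript with the most counts also has the gene's counts in CCT3 and STUB1, and nearly all of them in HSPD1, DNAJA1 and DNAJB5. These matches are no separate evidence either.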

How the data were processed

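Raw counts per gene and per mRNA transcript were deposited by the authors without normalization, beside RPKM values that the authors scaled by the listed length and the sample's total counts. The study's methods name HISAT2 and a buffalo genome, the submitters' processing notes name Bowtie 0.12.2 with mouse builds (mm8, mm9), and the tables list cattle Ensembl identifiers with no build, so coordinates are given as listed. Whether counting used strand is not given in the sources used here. The authors' lists of changed features, with their fold changes and p-values, and the ncRNA table were not used.

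Genes with at least 10 counts in total were tested in R 4.3.3 with edgeR 4.0.16 (TMM, glmQLFit, glmQLFTest, Benjamini-Hochberg adjustment over all tested genes). CPM uses the TMM-normalized library size. Standard errors come from the F statistic and 95% intervals from its degrees of freedom. Alternatives were DESeq2 1.42.0, other scalings and filters, a replicate block, glmTreat for changes beyond 2-fold, the transcript table and each sample left out in turn. Ratios were tested in scipy 1.17.1, with tables joined in pandas 2.3.3 under Python 3.11.15.

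The chaperone genes and all other lists were chosen with earlier results of these data known. Values in every sample are given for each called gene, for the genes of highest mean RPKM and of largest change in each role, and for HSF1, HSF2, HSPD1 and HSPE1; some genes outside this rule (HSPA4L, HSPA12A, HSPA9, CCT6B) were added after their values were seen. Among the other folding genes, those with the largest changes at a mean of at least 10 CPM are named, apart from a result that is not reported here. Of 4 planned ratios, 2 could be computed, since the others need symbols that are not listed. On simulated data with 15402 genes, edgeR called all 200 genes changed by 1.5 on the log2 scale, and 1 unchanged gene. With no minimum fold change, 12 unchanged genes had an adjusted p under 0.05. The changed genes averaged at least 10 CPM, and smaller changes, as in most chaperone genes, were not simulated. Equal numbers of genes were raised and lowered, and no simulated sample deviated as DM replicate 3 did. In the samples 63.0% of all tested genes had an adjusted p under 0.05, so the simulation does not measure the error rate in these data.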

Additional observations from a re-analysis of the deposited data

How the results depend on the processing

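Of the 37 tested chaperone genes, 32 kept their direction and their side of an adjusted p of 0.05 in the alternatives that tested them for any change. The p-values of glmTreat, which concern changes beyond 2-fold, are left out of this number. The number called was 7 to 11 across settings: 11 with library size alone, which added CCT2 (-1.08), 8 of 36 when genes had to reach an RPKM of 1 in over 50% of libraries (the RPKM rule), which lost CCT7 and AHSA1, and 7 with glmTreat for changes beyond 2-fold, which lost TCP1, CCT7 and AHSA1. DESeq2 called 10, and left 32 genes under an adjusted p of 0.05. With any 1 sample left out, 9 to 10 were called and 30 to 34 had an adjusted p under 0.05. The median log2 fold change was -0.77 with library size alone, where that of all tested genes was -0.072, and it was -0.69 to -0.61 with 1 sample left out. All called genes numbered 2197 under the RPKM rule and 2293 with glmTreat, in place of 3936, where 11587 genes were tested or the threshold was stricter, and 3647 to 3995 with 1 sample left out. HSPA13 turned to -0.065 with library size alone and ranged from -0.036 (without DM replicate 1) to 0.15 with 1 sample left out, being -0.027 without GM replicate 3, and the difference in the ratio of CCT3 to CCT6A ranged from -0.061 to 0.031, the latter without DM replicate 2, none of these past a threshold; the cause was not tested. HSF1 had an adjusted p of 0.00740 with library size alone, and STUB1 of 0.0592 under the RPKM rule. In the transcript table, where HSF1 has the same counts as per gene, its adjusted p was 0.0384.

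No pairing by replicate number was seen: deviations of equal numbers correlated at -0.0218 to -0.00756 and those of unequal numbers at -0.0121 to 0.0238. The correlations ran over all tested genes, those of low counts included, so they cannot exclude that equal numbers share a culture or animal. With a replicate block, 10 chaperone genes were called and 33 had an adjusted p under 0.05, HSPA12A (0.0306) being the addition. Counts of low genes such as HSPA4L limit what could be detected.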

Other observations

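Some chaperone genes moved against a partner of related function, and their ratios within a sample do not depend on how libraries are scaled. These ratios were chosen after the values were seen and carry no test. The ratio of FKBP5 to FKBP4 in RPKM lay between 0.0697 and 0.0871 under growth medium and between 0.831 and 0.865 under differentiation medium. The ratio of HSPA9 to HSPD1, the HSP70 and HSP60 of the matrix, was 1.18 to 1.20 in growth medium and 2.19 to 2.45 in differentiation medium. The ratio of DNAJB4 to DNAJA1 was 0.147 to 0.163 in growth medium and 0.519 to 0.735 in differentiation medium, with DM replicate 3 the lowest of its group. UNC45A to STIP1 went from between 0.277 and 0.302 to between 0.843 and 0.934.

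The chaperone genes varied little between samples of a group. The median coefficient of variation of CPM over the 37 genes was 2.80% in growth medium and 5.48% in differentiation medium. It was 4.84% and 7.27% over the 8981 genes averaging 10 CPM or more. The sets were not matched for level, so a small spread is not shown to be particular to chaperone genes. HSPA12A had the highest value in differentiation medium, 48.0%.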
